A study of Mus musculus with 32 samples.

Results

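The aryl hydrocarbon receptor pathway was followed through 6 mouse genes, taken from the count table by gene symbol. They were Ahr, which encodes the receptor, its DNA-binding partner Arnt, the repressors Ahrr and Tiparp, and the target enzymes Cyp1a1 and Cyp1b1. These are 6 of the 49585 entries of the table, and 5 of them, all but Cyp1a1, carried enough counts for the test. RNA was sequenced from FE1 cells, an immortalised line derived from mouse lung, which are labelled as lung epithelial cells. The cells received 0 (vehicle), 1, 4, 6 or 10 mM hydrazine, a small reactive nitrogen compound, for 4 h, and were collected at once or after 20 h more in which the compound had been washed out. Each of the 10 groups held 3 libraries, lettered a to c, except 4 mM at 4 h, which held 5, lettered a to e. All groups are the same line, without any genetic change between them.

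At the end of the 4 h exposure, the RNAs of this pathway moved apart. Tiparp rose from 24.7 ± 3.47 CPM in vehicle to 74.2 ± 1.92 CPM at 10 mM (mean ± SD, n = 3 each), where CPM is the count scaled to a common library total. Ahrr rose from 0.667 ± 0.243 to 4.00 ± 0.393 CPM, while Cyp1b1 fell from 762 ± 59.6 to 386 ± 6.35 CPM. Ahr rose at 1 mM, fell at 4 and 6 mM, and overlapped the vehicle libraries at 10 mM. After the washout, edgeR's quasi-likelihood test called none of the 5 tested genes against the washout vehicle at any dose. The share of all genes called there was also low, from 0.981% at 1 mM to 11.1% at 6 mM.

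The receptor is a transcription factor of the bHLH-PAS family that waits in the cytosol in a complex with the chaperone HSP90. Ligands such as dioxins, polycyclic aromatic hydrocarbons and tryptophan derivatives bring it to the nucleus, where it pairs with ARNT and binds short DNA elements with the core GCGTG. In lung epithelium it is best known for inducing the CYP1 enzymes, and it also induces AHRR and TIPARP, which act back on the receptor.

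Each library held between 10560942 and 17086721 counts. No pair of replicates was a copy of the same library: the chi-square per degree of freedom was at least 2.04. Nothing in the labels states that replicates came from separate cultures, so the p-values rest on the variation among these libraries, which may be purely technical. Library c of 6 mM after washout stood apart, with a median correlation of 0.973 with its own group against 0.981 or more for every other library, so results that rest on it are given with and without it. The epithelial label was not borne out by the markers: of 11 epithelial markers only Krt7, a simple epithelial keratin, had enough counts for the test, Nkx2-1 and Sftpc were at 0 in every library, and the summed level was 0.665 to 3.01 CPM. The 6 mesenchymal markers summed to 18527 to 24536 CPM. The 4 endothelial markers summed to 0.683 CPM at most and the 4 leukocyte markers to 4.51 CPM at most.

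The stretches of 250 bases before the RefSeq gene start are shown for the 3 genes whose changes carried the dose response at 4 h. They come from RefSeq on GRCm38.p6, read 5′ to 3′ along the gene's strand, with matches to GCGTG on either strand in capitals (a match on the other strand reads CACGC). The Ahrr stretch is chr13:74292332-74292581 on the minus strand, the Tiparp stretch is chr3:65528197-65528446 on the plus strand, and the Cyp1b1 stretch is chr17:79715062-79715311 on the minus strand.
Ahrr: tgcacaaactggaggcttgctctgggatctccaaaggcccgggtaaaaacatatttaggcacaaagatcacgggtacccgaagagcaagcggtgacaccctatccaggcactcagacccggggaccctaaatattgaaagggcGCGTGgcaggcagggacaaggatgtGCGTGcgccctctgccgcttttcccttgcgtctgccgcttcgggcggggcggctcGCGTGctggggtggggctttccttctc
Tiparp: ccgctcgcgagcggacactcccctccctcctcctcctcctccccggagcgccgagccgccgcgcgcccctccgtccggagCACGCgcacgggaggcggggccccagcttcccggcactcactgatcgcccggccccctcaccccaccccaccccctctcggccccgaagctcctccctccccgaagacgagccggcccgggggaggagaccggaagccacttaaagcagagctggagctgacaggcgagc
Cyp1b1: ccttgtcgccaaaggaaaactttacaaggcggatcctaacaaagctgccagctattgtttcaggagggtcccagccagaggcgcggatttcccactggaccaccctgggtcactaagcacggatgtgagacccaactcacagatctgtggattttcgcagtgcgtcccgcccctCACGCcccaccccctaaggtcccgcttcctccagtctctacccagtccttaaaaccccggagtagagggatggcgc

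With the gene start counted as 0, the Ahrr stretch held 3 matches on the gene's own strand, beginning at -107, -82 and -27. Tiparp held 1 match on the other strand, spanning -170 to -166, and Cyp1b1 held 1 on the other strand, spanning -76 to -72. The promoters of Cyp1a1 and Arnt, not printed here, each held 1 match on their own strand, at -54 to -50 and at -29 to -25. The table of promoters, each running from 250 bases before to 50 bases after the start, had entries for 5 of the 6 genes and none for Ahr. At least 1 match was present in 32.4% of all 32851 promoters, and at least 3 in 3.91%. The longer form TNGCGTG, which contains the core, occurred 1 time in the Ahrr promoter, in none of the other 4, and in 5.07% of all promoters. A match describes the letters and shows neither binding nor a cause.

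**Figure D1:**
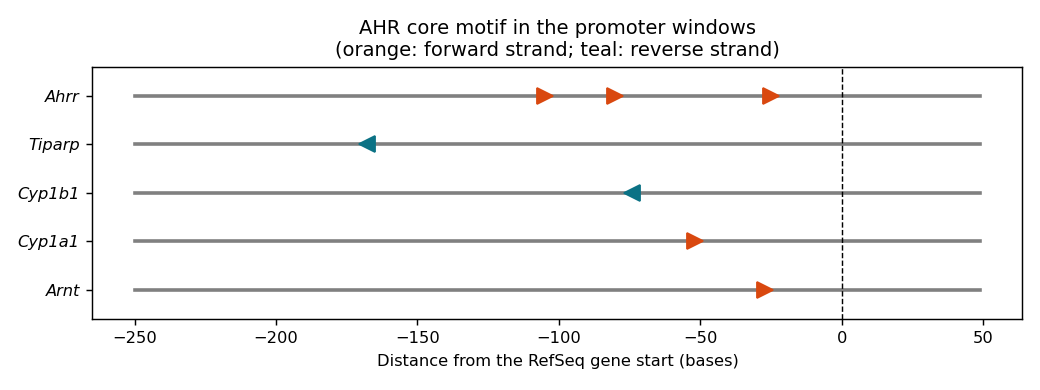
Position of each GCGTG match in the promoter window of 5 genes, in bases from the RefSeq gene start (dashed line at 0). Right-pointing orange marks are matches on the gene's own strand and left-pointing teal marks are on the other strand. Ahrr holds 3 matches and each other gene holds 1.

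The receptor gene Ahr (chr12:35497974-35535038, minus strand, GRCm38) was measured at 44.2, 52.7 and 47.6 CPM in vehicle libraries a to c at 4 h. It stood at 59.7, 66.2 and 63.5 CPM at 1 mM. All 3 libraries at 1 mM were above every vehicle library. At 4 mM the 5 libraries gave 38.4, 39.4, 37.6, 39.2 and 36.2 CPM, and at 6 mM the 3 gave 29.2, 30.1 and 27.0 CPM. Both groups lay wholly below the vehicle, and 6 mM lay below 4 mM. At 10 mM the values were 43.0, 45.5 and 46.7 CPM, overlapping the vehicle and above both 4 and 6 mM.

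The log2 fold change of Ahr against vehicle was 0.39 ± 0.11 (SE) at 1 mM, with an adjusted p of 0.0159 by edgeR's quasi-likelihood test. It was -0.34 ± 0.10 at 4 mM (adjusted p 0.00582) and -0.74 ± 0.11 at 6 mM (adjusted p 3.07e-06), and -0.09 with a 95% interval from -0.32 to 0.13 at 10 mM (adjusted p 0.491). Between neighbouring doses, Ahr was lower at 4 than at 1 mM (-0.73, adjusted p 6.53e-07), lower at 6 than at 4 mM (-0.41, adjusted p 0.00878) and higher at 10 than at 6 mM (0.65, adjusted p 3.25e-05). The level of Ahr thus did not move one way with dose: its order at 4 h was 1 mM, vehicle, 10 mM, 4 mM and 6 mM, of which vehicle and 10 mM did not separate. The call at 1 mM rested on single libraries: it was lost without vehicle a (0.32, adjusted p 0.123), vehicle c (0.37, 0.0775), 1 mM b (0.34, 0.0873) or 1 mM c (0.37, 0.0556). The call at 4 mM was lost without vehicle b (-0.27, adjusted p 0.0585), and that of 6 against 4 mM without 6 mM c (-0.37, adjusted p 0.0704).

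The partner gene Arnt (chr3:95434388-95497240, plus strand), which the receptor shares with hypoxia factors, gave 62.9, 63.5 and 59.0 CPM in the 4 h vehicle libraries and 74.5, 78.1 and 72.8 CPM at 10 mM. All 3 libraries at 10 mM were above every vehicle library. The libraries at 1, 4 and 6 mM ran from 55.8 to 65.6 CPM. Arnt was called at 10 mM (log2 fold change 0.28 ± 0.08, adjusted p 0.00428 by edgeR) and was higher at 10 than at 6 mM (0.27, adjusted p 0.00877). At 1, 4 and 6 mM its log2 fold changes were -0.04, -0.11 and 0.01, with adjusted p of 0.820, 0.247 and 0.915, and the 95% intervals lay between -0.26 and 0.18. The fit to libraries of the same time alone called Arnt at 4 mM (-0.13, adjusted p 0.0403), where the other settings and left-out libraries gave 0.0608 to 0.478. The rise of Arnt at 10 mM rests in part on the TMM factors. These were 0.911 to 0.923 in the 10 mM libraries and 1.01 to 1.02 in the vehicle libraries at 4 h. No fit by plain library totals was run.

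The repressor gene Ahrr (chr13:74211118-74292331, minus strand) encodes a bHLH-PAS protein that competes with the receptor for ARNT. It was scarce: vehicle libraries at 4 h held 7, 11 and 5 counts, which is 0.601, 0.936 and 0.464 CPM. Libraries at 4 mM held 31, 37, 28, 35 and 33 counts (1.98, 2.55, 2.43, 2.16 and 1.87 CPM). Libraries at 6 mM held 46, 52 and 36 counts (3.56, 4.47 and 2.97 CPM), and those at 10 mM 37, 46 and 59 (3.63, 3.95 and 4.41 CPM). Every library at 4, 6 and 10 mM was above every library of vehicle and of 1 mM, while the 1 mM libraries (0.913, 0.824 and 1.17 CPM) overlapped the vehicle. The libraries at 10 mM lay within the range of those at 6 mM.

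Against vehicle, the log2 fold change of Ahrr was 0.53 ± 0.35 (SE) at 1 mM (adjusted p 0.401), 1.69 ± 0.29 at 4 mM (adjusted p 3.00e-05), 2.43 ± 0.31 at 6 mM (adjusted p 1.62e-07) and 2.56 ± 0.30 at 10 mM (adjusted p 3.81e-08, all by edgeR). The last is a 5.90-fold rise, the 81st largest log2 fold change upward among the 13258 genes tested. Ahrr passed the filter on low counts (0.776 CPM) through its treated libraries: 1 of 3 vehicle libraries reached that level against all 14 of the treated libraries at 4 h, so its presence among the tested genes depended on its rise. It rose from 1 to 4 mM (1.15, adjusted p 0.00148) and from 4 to 6 mM (0.74, adjusted p 0.0332), and 10 and 6 mM differed by 0.13 (95% interval -0.37 to 0.63, adjusted p 0.715). The step from 4 to 6 mM was not called without 4 mM a, d or e, or 6 mM a or b, where adjusted p ran from 0.0554 to 0.192. The lowest of these changes was 0.58, without 6 mM b. Nor was it called without the filter (0.74, adjusted p 0.0784) or with libraries a to c of 4 mM alone (0.66, adjusted p 0.151).

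Tiparp (chr3:65528410-65555518, plus strand) encodes an ADP-ribosyltransferase, also called PARP7, that modifies the receptor and promotes its loss. Vehicle libraries gave 26.0, 20.8 and 27.3 CPM and 1 mM libraries 20.5, 20.8 and 22.7 CPM, and the groups overlapped. The libraries at 4 mM gave 35.2, 31.8, 36.4, 33.2 and 33.3 CPM, those at 6 mM gave 42.9, 44.2 and 51.0 CPM, and those at 10 mM gave 73.2, 73.0 and 76.4 CPM. From 1 to 10 mM the groups stood in the order of dose with no overlap. The log2 fold changes against vehicle were -0.21 ± 0.10 (SE; adjusted p 0.188) at 1 mM, 0.46 ± 0.08 (5.27e-05) at 4 mM, 0.90 ± 0.09 (2.99e-09) at 6 mM and 1.59 ± 0.09 (7.09e-15) at 10 mM, the last a 3.01-fold rise. Each step was called by edgeR: 0.67 from 1 to 4 mM (adjusted p 4.43e-07), 0.44 from 4 to 6 mM (0.000294) and 0.69 from 6 to 10 mM (2.20e-07). No left-out library ended a call of a rise. At 1 mM, Tiparp was called lower without vehicle b (-0.32, adjusted p 0.0297).

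Cyp1b1 (chr17:79701537-79715061, minus strand), a P450 enzyme that oxidises polycyclic aromatic hydrocarbons and oestrogens, was the most abundant of the 6 genes and went down. Vehicle libraries gave 693, 794 and 798 CPM and 1 mM libraries 658, 619 and 670 CPM. Libraries at 4 mM gave 512, 529, 568, 529 and 524 CPM, those at 6 mM gave 439, 453 and 482 CPM, and those at 10 mM gave 388, 379 and 392 CPM. Each dose lay wholly below the dose before it. Against vehicle the log2 fold change was -0.23 ± 0.09 (SE; adjusted p 0.114) at 1 mM, -0.52 ± 0.08 (6.56e-06) at 4 mM, -0.73 ± 0.09 (1.63e-07) at 6 mM and -0.98 ± 0.09 (4.63e-10) at 10 mM, the last a 1.97-fold fall.

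The neighbouring steps of Cyp1b1 were small. They were -0.29 from 1 to 4 mM (adjusted p 0.00934 by edgeR), -0.22 from 4 to 6 mM (0.110) and -0.25 from 6 to 10 mM (0.0358). The step from 1 to 4 mM was not called without 1 mM c (-0.26, adjusted p 0.0607). The step from 6 to 10 mM was not called without 6 mM b or c, or without any 10 mM library, with -0.21 (without 6 mM c, adjusted p 0.120) the smallest change, nor without the filter (-0.25, adjusted p 0.0638). The step from 4 to 6 mM was called without washout 6 mM b (adjusted p 0.0392) or c (0.0142). The fall of Cyp1b1 at 1 mM was also called without washout 6 mM b (-0.25, adjusted p 0.0309) or c (-0.25, adjusted p 0.0108), which enter the fit through the shared spread. Fits with all libraries of the same time, or of the compared groups alone, called the fall of Cyp1b1 at 1 mM (-0.25, adjusted p 0.00126, and -0.24, 0.00695) and its step from 4 to 6 mM (-0.22, 0.00182, and -0.22, 0.00513).

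Cyp1a1 (chr9:57687928-57703824, plus strand), the classical reporter of receptor activity, was almost without counts. The 17 libraries at 4 h held 14 counts in all, in 10 libraries with at most 2 each. Over the plain totals of those libraries, without TMM scaling, this is 0.0624 CPM, with an exact Poisson 95% interval of 0.0341 to 0.105. By group the sums at 4 h were 1 in vehicle, 3 at 1 mM, 3 in the 5 libraries at 4 mM, 4 at 6 mM and 3 at 10 mM. All 15 washout libraries were at 0, which allows up to 0.0150 CPM over their pooled total and 0.188 to 0.284 CPM in a single library (3 counts; intervals and limits cover counting error only). The lower limit at 4 h thus lay above the pooled limit after washout. Both limits pool libraries of all doses as if they were 1 sample, and all limits given here use plain totals. With 1 count in the 4 h vehicle and 0 in the washout vehicle, the vehicles alone cannot show a difference between times. No change of Cyp1a1 with dose was detectable at this depth.

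**Figure D2:**
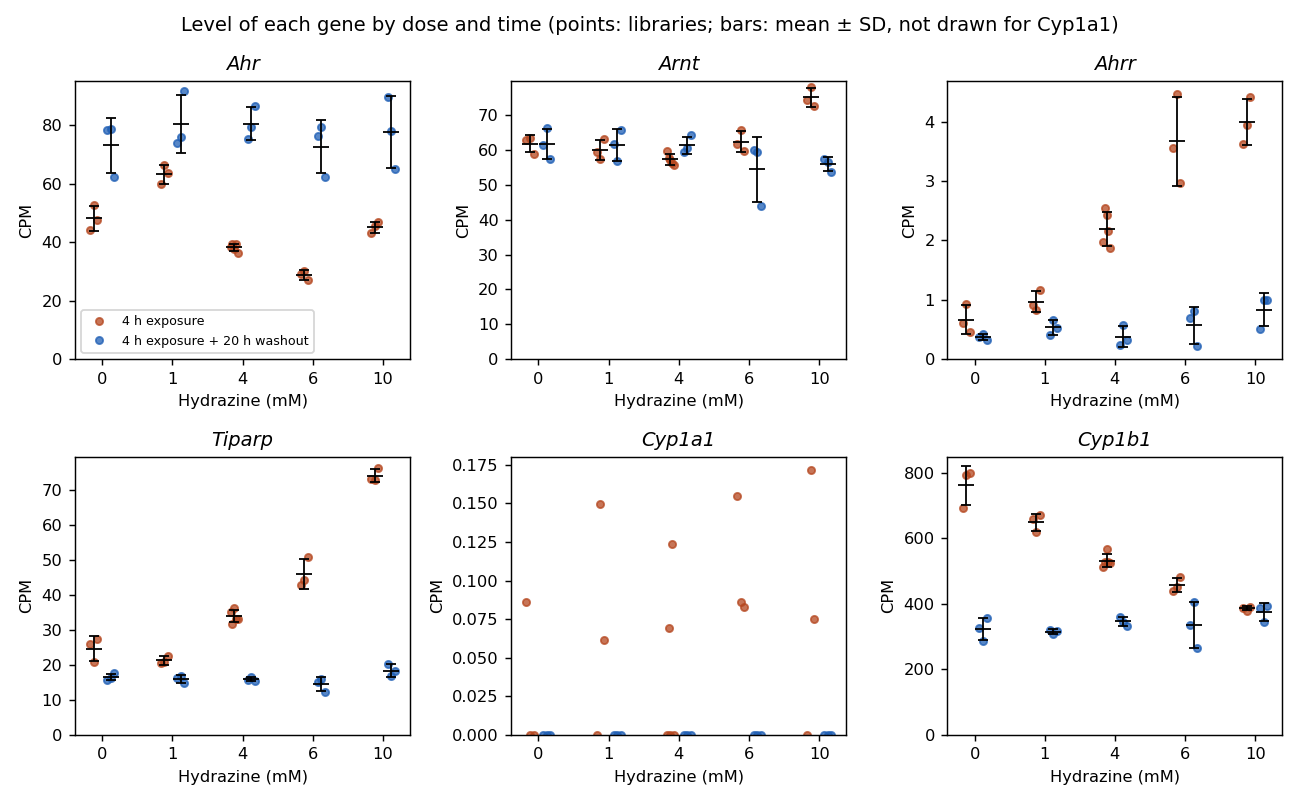
CPM of each gene in every library against hydrazine dose in mM, with doses evenly spaced. Orange points are libraries at 4 h and blue points are libraries after washout; black bars are the mean and SD (not drawn for Cyp1a1, whose libraries hold at most 2 counts). At 4 h Tiparp and Ahrr climb with dose from 4 mM and Cyp1b1 falls, while the washout libraries stay within 12.2 to 20.3 CPM for Tiparp and 265 to 405 CPM for Cyp1b1.

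Counted together at 4 h, edgeR called 1 of the 5 tested genes at 1 mM, where it called 9.84% of all genes tested. It called 4 of 5 at 4 mM, where 38.6% of all genes were called, and 4 of 5 at 6 mM, where 39.8% were. At 10 mM it called 4 of 5, where 50.1% of all genes were called. Ahrr passed the filter through its treated libraries, Cyp1a1 did not pass, and the genes were chosen with earlier results of these data known. The counts therefore describe these genes and do not measure an excess over the share of all genes. At 4 and 6 mM, Ahrr and Tiparp were higher and Ahr and Cyp1b1 lower. At 10 mM, Ahrr, Tiparp and Arnt were higher and Cyp1b1 lower. The median log2 fold change of the 5 genes at 10 mM was 0.28, against 0.01 over all genes tested. Between neighbouring doses at 4 h, 4 of 5 were called for 4 against 1 mM (24.7% of all genes), 3 of 5 for 6 against 4 mM (8.06%) and 4 of 5 for 10 against 6 mM (37.5%).

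In bulk RNA, fewer cells of a type and less RNA per cell cannot be told apart. The summed mesenchymal markers also moved with dose at 4 h. They ran from 18527 to 19849 CPM in vehicle and from 23379 to 24536 CPM at 10 mM. There Vim, Fn1 and Col1a1 were called higher (3 of 6) and the others were not called, where 26.0% of all genes tested were called higher. The summed leukocyte markers were 1.70 to 2.51 CPM in vehicle and 2.92 to 4.51 CPM at 10 mM, with Cd68, the only marker of that list tested, called higher. Their part in the changes above was not tested.

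**Figure D3:**
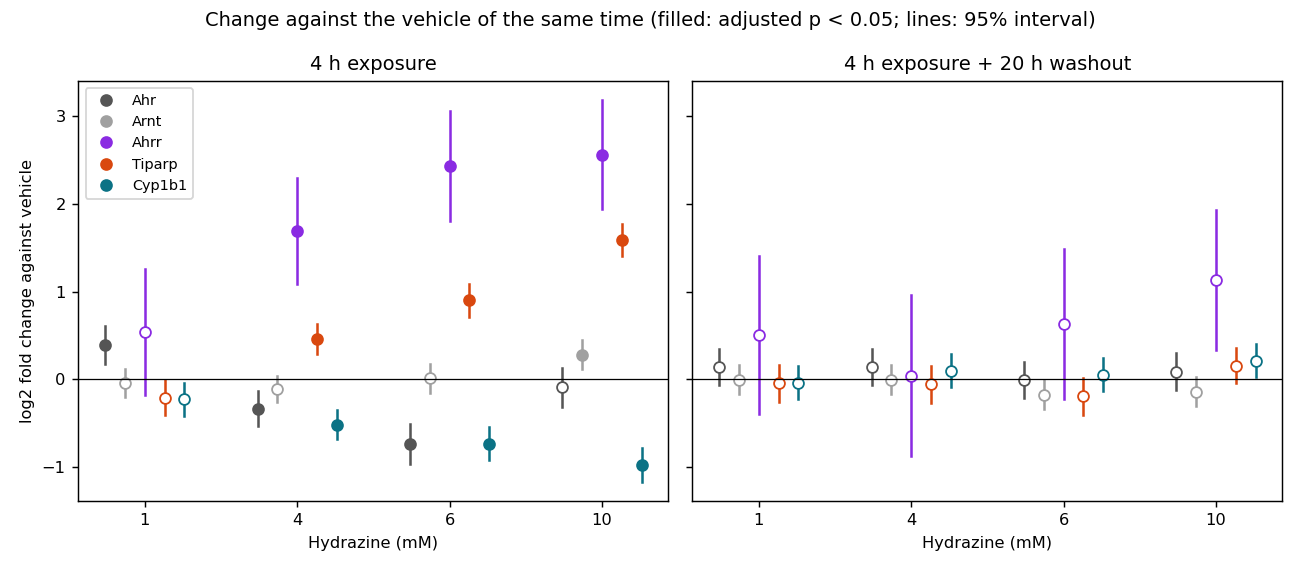
Log2 fold change against the vehicle of the same time for the 5 tested genes, by hydrazine dose in mM, at 4 h (left) and after washout (right). Lines are 95% intervals and filled points have an adjusted p below 0.05 by edgeR. Filled points appear at 4 h only, with Ahrr reaching 2.56 and Cyp1b1 -0.98 at 10 mM.

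After the washout, edgeR called 0 of 5 genes at 1 mM (0.981% of all genes were called), at 4 mM (3.48%), at 6 mM (11.1%) and at 10 mM (5.32%), and DESeq2 also called 0 at each dose. The unadjusted p was below 0.05 for 0 genes at 1 and 4 mM, for 1 at 6 mM (Arnt) and for 2 at 10 mM (Ahrr and Cyp1b1). Ahrr gave 0.367, 0.418 and 0.327 CPM in the washout vehicle and 0.510, 0.992 and 0.994 CPM after 10 mM. Those groups did not overlap, but the libraries held only 4 to 16 counts of Ahrr, and the log2 fold change of 1.13 (95% interval 0.33 to 1.94) had an adjusted p of 0.101. Tiparp gave 15.8, 16.3 and 17.6 CPM in the washout vehicle and 20.3, 16.7 and 18.1 CPM after 10 mM (log2 fold change 0.16, 95% interval -0.05 to 0.36, adjusted p 0.443). The groups overlapped.

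Cyp1b1 gave 327, 287 and 356 CPM in the washout vehicle and 386, 343 and 395 CPM after 10 mM, with overlap (0.21, 95% interval 0.02 to 0.40, adjusted p 0.206 by edgeR). It was called there without washout 6 mM c (0.21, adjusted p 0.0474). Ahr ran from 62.3 to 91.8 CPM over the 15 washout libraries, and its 95% intervals against the washout vehicle lay between -0.22 and 0.35 at all doses. Arnt after 6 mM gave 60.2, 59.4 and 43.8 CPM, the last in library c, against 61.4, 66.2 and 57.5 CPM in vehicle. Its log2 fold change there was -0.18 (adjusted p 0.144) with all libraries and -0.05 (adjusted p 0.765) without library c. It was called without 6 mM a (-0.26, adjusted p 0.0381) or b (-0.25, adjusted p 0.0450), which leave library c with 1 other. Without library c the other genes at 6 mM after washout stood at 0.09 for Ahr, 0.99 for Ahrr, -0.09 for Tiparp and 0.19 for Cyp1b1, with adjusted p from 0.132 to 0.718.

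The summed leukocyte markers were 1.25 to 1.72 CPM in the washout vehicle and 3.22 to 3.42 CPM after 10 mM, with Cd68 called higher, and their part in these values was not tested. Neighbouring doses after washout gave 0 calls among the 5 genes by edgeR and by DESeq2, where 0.136%, 0.0226% and 0.0453% of all genes were called for 4 against 1, 6 against 4 and 10 against 6 mM. Unadjusted p was below 0.05 for Arnt at 6 against 4 mM (0.0403) and for Tiparp at 10 against 6 mM (0.00150). Both Tiparp (0.42) and Cyp1b1 (0.32) were called for 10 against 6 mM without washout 6 mM b (adjusted p 0.0308 each by edgeR). That leaves library a with library c, which was the lowest of its group for both genes (12.2 and 265 CPM). With any library left out, the smallest change was 0.246 for Tiparp and 0.0164 for Cyp1b1.

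The difference between the times was tested itself, as the effect of a dose after washout minus its effect at 4 h. At 1 mM, 0 of 5 genes were called by edgeR and by DESeq2 (1.09% of all genes), and 0 had an unadjusted p below 0.05. At 4 mM 4 of 5 were called (17.3% of all genes), at 6 mM 4 of 5 (24.4%) and at 10 mM 4 of 5 (36.4%). For Tiparp at 10 mM the difference was -1.43 ± 0.13 (SE; adjusted p 1.29e-09) and for Cyp1b1 it was 1.19 ± 0.13 (adjusted p 2.58e-08). These differences have the opposite sign to the effects at 4 h. For Cyp1b1 the 10 mM level was 386 ± 6.35 CPM at 4 h and 375 ± 27.6 CPM after washout. Its vehicle level was 762 ± 59.6 and 323 ± 34.7 CPM, so the difference of Cyp1b1 lay mainly in the vehicles. For Tiparp the 10 mM level was 74.2 ± 1.92 and 18.4 ± 1.83 CPM, and the vehicle level 24.7 ± 3.47 and 16.6 ± 0.931 CPM.

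The vehicles of both times, which never met hydrazine, differed as well. Of the 5 genes 3 were called, against 6.89% of all genes. Cyp1b1 was 2.36-fold lower in the washout vehicle (-1.24 ± 0.09, adjusted p 3.42e-10), the 74th largest fall among the 13258 genes, and Tiparp was lower by -0.57 ± 0.10 (adjusted p 0.000338). Ahr was higher by 0.60 ± 0.11 (adjusted p 0.000397), and Arnt differed by 0.00 (95% interval -0.17 to 0.16). Ahrr was lower in all 3 washout vehicle libraries than in any of the 3 at 4 h (-0.84, 95% interval -1.70 to 0.02, adjusted p 0.310). Every effect after washout is therefore read against a vehicle whose Cyp1b1 was already below the level of 10 mM at 4 h: 323 ± 34.7 CPM against 386 ± 6.35 CPM, a pair that was not tested.

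Per kilobase of exon, which allows levels to be compared between genes, Cyp1b1 led by far in vehicle at 4 h with 130 ± 10.2 CPM per kb. Ahr followed with 7.81 ± 0.690, Arnt with 7.72 ± 0.304 and Tiparp with 5.67 ± 0.796 CPM per kb, where Ahr and Arnt were closer than their spread. Ahrr stood at 0.0707 ± 0.0257 CPM per kb. By total level, Cyp1b1 ranked 163 of the 19937 entries with a count in that group. At 10 mM the order per kb was Cyp1b1 (66.2 ± 1.09), Tiparp (17.03 ± 0.440), Arnt (9.38 ± 0.339), Ahr (7.31 ± 0.310) and Ahrr (0.423 ± 0.0416). In the washout vehicle it was Cyp1b1 (55.4 ± 5.94), Ahr (11.8 ± 1.51), Arnt (7.70 ± 0.549), Tiparp (3.80 ± 0.214) and Ahrr (0.0393 ± 0.00482). At 4 h the mean of Tiparp was below those of Ahr and Arnt at 1 mM and above both from 4 mM on (7.80 ± 0.410 against 6.19 ± 0.210 and 7.16 ± 0.189 CPM per kb at 4 mM), and in the washout vehicle it lay below both.

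**Figure D4:**
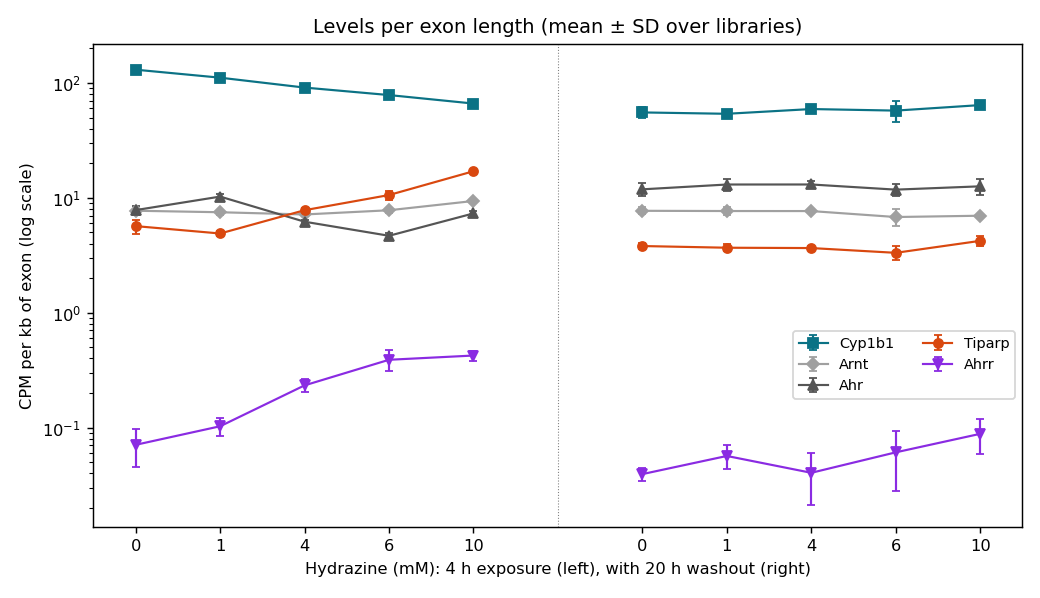
Mean level of 5 genes in CPM per kilobase of exon (log axis) by hydrazine dose in mM, with SD over libraries as error bars. The left side shows 4 h and the right side the washout. Tiparp crosses Ahr and Arnt between 1 and 4 mM at 4 h, and all genes are nearly level across doses after washout apart from the scarce Ahrr.

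Among 10106 genes of at least 5 CPM, the patterns most like each gene over the 10 group means of log2 CPM were listed by Pearson r, as a description over points that share libraries and doses. Tiparp was most like Klf11 (0.992), Plod3 (0.991) and Zfp869 (0.991), and Ahrr most like Arrdc3 (0.984), Wdfy1 (0.983) and Washc2 (0.983). Cyp1b1 was most like Cav1 (0.955), Arl4a (0.943) and Btbd10 (0.922). Ahr was most like L3mbtl3 (0.968) and Ints3 (0.965), and Arnt most like Ccdc6 (0.973), Kdm6a (0.960) and Cdc40 (0.959). Between the tested genes, r was 0.946 for Ahrr with Tiparp, and -0.853 and -0.820 for Ahr with each of them. Cyp1b1 had an r of 0.273 with Ahrr and 0.298 with Tiparp. These means span both times, and the vehicles differed between times for Cyp1b1, Tiparp and Ahr, so r mixes time with dose. At 4 h alone, Cyp1b1 fell from 762 CPM in vehicle to 386 CPM at 10 mM, while Tiparp rose from 24.7 to 74.2 CPM. Ahr stood at 48.2 CPM in vehicle and 45.1 CPM at 10 mM there.

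Other genes of the pathway were counted in 7 lists at 10 mM and 4 h, with edgeR's test over all genes. In this comparison 26.0% of all genes tested were called higher and 24.1% lower. The lists were chosen with earlier results of these data known, so their counts and medians do not measure an excess over all genes. Of the 7 genes of the cytosolic receptor complex, 5 were higher and 0 lower, with a median log2 fold change of 0.29. Src, a kinase held in the complex, rose by 0.72 (adjusted p 2.24e-11) and the chaperone gene Hsp90ab1 by 0.38 (4.06e-08). Of the 12 coregulators, 6 were higher and 1 lower (median 0.27). Nrip1, a corepressor of nuclear receptors, rose from 19.1 ± 1.73 to 37.1 ± 2.36 CPM, Crebbp, a histone acetyltransferase, from 60.8 ± 9.08 to 109 ± 4.79 CPM, and Ncoa2, a coactivator, fell from 61.6 ± 6.44 to 43.6 ± 2.32 CPM. Of 13 bHLH-PAS relatives 8 were tested, 3 higher and 0 lower (median 0.37). Npas4, a relative known from neurons, rose by 2.78 from 0.287 ± 0.173 CPM, the clock gene Arntl by 0.69 and the hypoxia factor gene Hif1a by 0.62. Npas4 was scarce, with 10 counts in all over the 4 h vehicle libraries, where its mean lay below the filter on low counts (0.776 CPM). It stood at 2.08 ± 0.871 CPM at 10 mM and at 0.784 ± 0.212 CPM in the washout vehicle.

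Of 22 further genes known as receptor targets 14 were tested, 8 higher and 2 lower, with a median of 0.47 against 0.01 over all genes. As this list too was chosen with earlier results of these data known, neither value measures an excess over all genes. Of those that moved most, Fgf21, a stress hormone gene, rose from 0.207 ± 0.106 to 1.65 ± 0.433 CPM. Il6, a cytokine gene, rose from 0.493 ± 0.469 to 1.66 ± 0.506 CPM. Ptgs2, which encodes cyclooxygenase-2, rose from 185 ± 27.0 to 351 ± 43.4 CPM. These genes are also induced by other stress signals, and which signal moved them was not tested. On average, Fgf21 and Il6 lay below the filter on low counts (0.776 CPM) in vehicle and above it at 10 mM. They may thus have entered the test through their rise, which would raise the count of higher genes and the median. Nqo1, a quinone reductase that the receptor and NRF2 both induce, fell by 0.43 on the log2 scale at 10 mM at 4 h (adjusted p 0.00730), although it was higher at 4 mM (0.47, adjusted p 0.00118). Without vehicle b its change at 10 mM was -0.32 (adjusted p 0.0690). After washout of 10 mM it was higher, at 16.7 ± 3.28 against 10.6 ± 1.95 CPM (0.66, adjusted p 0.00338; 0.48 and 0.0505 without washout 10 mM c).

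Of 10 genes that make or break down tryptophan-derived ligands 3 were tested, 0 higher and 1 lower (median -0.21). Kyat3, a kynurenine aminotransferase, fell from 8.64 ± 1.24 to 3.28 ± 1.05 CPM. Of 6 genes that supply electrons to P450 enzymes or act on their products, 2 were higher and 2 lower (median 0.11). Por, the main electron donor of P450 enzymes, rose by 0.37 (adjusted p 0.000162) and Cyb5r3, a cytochrome b5 reductase, by 0.26, while Cyb5a, a cytochrome b5, fell by 0.45. Of 11 ADP-ribosylation relatives of Tiparp, 1 was higher and 2 lower (median -0.23): Parp6 rose by 0.72, while Macrod2 and Oard1, which remove ADP-ribose, fell by 0.79 and 0.33. The share of all genes called in this comparison was 26.0% higher and 24.1% lower.

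After washout of 10 mM, where 3.38% of all genes were higher and 1.94% lower, few of these genes were called. There were 2 of the receptor targets (Nqo1 and Xdh, the gene of xanthine dehydrogenase, both higher), 2 of the coregulators (Rb1, the retinoblastoma gene, higher and Carm1, an arginine methyltransferase, lower), 1 of the bHLH-PAS relatives and 1 of the P450 partners. Arntl2, a clock gene, gave 6.26 ± 0.435 against 3.50 ± 0.442 CPM (0.84, adjusted p 0.000390), and Ephx1, the microsomal epoxide hydrolase, 267 ± 3.26 against 221 ± 13.8 CPM (0.27, adjusted p 0.000752). Rb1 was higher by 0.39 (adjusted p 0.00407), and by 0.40 in the fit to libraries of the same time, which did not call it (adjusted p 0.0596). None of the cytosolic complex, tryptophan or ADP-ribosylation genes was called by edgeR.

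**Figure D5:**
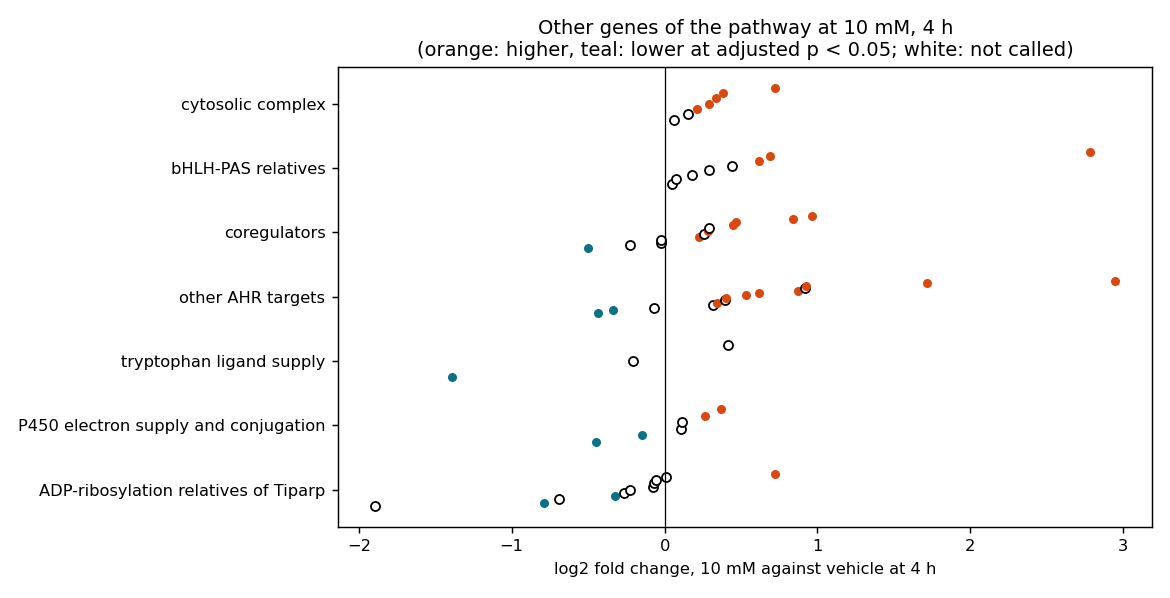
Log2 fold change at 10 mM against vehicle at 4 h for each tested gene of 7 lists, 1 point per gene and 1 row per list. Orange points were higher and teal points lower at an adjusted p below 0.05 by edgeR, and open points were not called. In the row of the cytosolic complex 5 of 7 points are orange and none is teal. Of all genes tested, 26.0% were higher and 24.1% lower in this comparison.

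A few annotated genes overlap these loci in GENCODE M21. Opposite Tiparp, and sharing exon sequence with it, lies the pseudogene 4931440P22Rik, with 40.2 counts over all 32 libraries. Within Arnt lies the pseudogene Gm42672 on the same strand, with 51 counts. The library kit keeps strand, but the strand setting of the authors' counting is not given in the sources used here.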

How the data were processed

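Per the labels, total RNA of 32 samples was enriched for poly-A RNA, made into stranded libraries and read as pairs. The authors deposited 1 table of expected counts per gene. Their aligner, quantifier and genome build are not given in the sources used here. Of the nonzero values 73.9% were whole numbers, and all were rounded. Symbols and GRCm38 positions were matched by gene identifier to GENCODE M21 (48174 of 49585 entries, 97.2%); entries without a symbol held 0.0181% of the counts.

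Genes were kept with edgeR's expression filter (minimum count 10, minimum total 15; 13258 genes), scaled by TMM and fitted with 1 coefficient per group over all 32 libraries by edgeR's robust quasi-likelihood method (22 residual degrees of freedom, common biological coefficient of variation 0.0847). Adjusted p-values are Benjamini-Hochberg values over all genes tested, called below 0.05. The 19 comparisons were each dose against its vehicle, neighbouring doses, the differences between times, and the vehicles. Likeness used group means of log2 CPM with a prior count of 2.

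Named were the 6 genes; of each list, up to 3 called genes of largest change at 10 mM at 4 h and 1 after washout; and 3 genes of the most similar pattern per tested gene; 2 of the genes this rule names are not reported here. Xdh, Carm1, the markers and the overlapping genes were named after their values were seen. The members and lists were chosen with earlier results of these data known. The fit was tested on simulated data in which few genes changed, in 1 group only. That setting does not cover 10 mM at 4 h, where 50.1% of all genes were called. The fit ran in R 4.3.3 with DESeq2 1.42.0, limma 3.58.1 and edgeR 4.0.16.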

Additional observations from a re-analysis of the deposited data

Results flagged for a closer look

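For 12 pairs of gene and dose, the effect of hydrazine after washout differed from its effect at 4 h by edgeR's test of that difference, given here as the log2 effect after washout minus the log2 effect at 4 h. For Tiparp it was -0.519 at 4 mM (adjusted p 0.00562), -1.09 at 6 mM (5.37e-07) and -1.43 at 10 mM (1.29e-09). For Cyp1b1 it was 0.615 at 4 mM (0.000637), 0.787 at 6 mM (3.76e-05) and 1.19 at 10 mM (2.58e-08). These 6 were called without each library in turn and under each other setting tried. For Cyp1b1 at 10 mM the treated means were 386 CPM at 4 h and 375 CPM after washout, and the vehicle means 762 and 323 CPM.

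For Ahr the difference was 0.477 at 4 mM (adjusted p 0.0164 by edgeR) and 0.734 at 6 mM (0.000536), and for Arnt it was -0.424 at 10 mM (0.00394). The 4 mM value of Ahr was not called without 4 h vehicle b (0.41, adjusted p 0.0624), washout vehicle c (0.38, 0.0683) or washout 4 mM c (0.42, 0.0536). The other 2 were called in every setting tried.

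For Ahrr, with 3 to 59 counts per library, the difference was -1.65 at 4 mM (adjusted p 0.0487 by edgeR), -1.8 at 6 mM (0.0159) and -1.43 at 10 mM (0.0366). At 4 mM it was not called by DESeq2 (0.0758), without the filter (0.109) or without any of 24 of the 32 libraries, with a smallest change of -1.42 without washout 4 mM a (0.126) and a largest adjusted p of 0.134 without washout vehicle b. At 10 mM it was not called by DESeq2 (0.0643), without the filter (0.0977), or without 4 h vehicle a or c, 10 mM c, any washout vehicle library or washout 10 mM a, with -1.14 (adjusted p 0.120) for the last. At 6 mM it was not called with the compared groups alone (0.0745), without washout vehicle b (-1.71, 0.0612) or without washout 6 mM c (-1.43, 0.0645).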

How the results depend on the processing

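Against vehicle, the tested genes kept their side of the threshold in 353 of 356 combinations with another setting and in 1269 of 1280 with a library left out. No call changed sign, and sign changes of values called under neither setting (4 and 16) counted as unchanged. In the other comparisons 454 of 467 and 1708 of 1760 were unchanged. The number of pathway genes called at 1 mM and 4 h was 1, and 2, with Cyp1b1 added, when fitted to samples of the same time or to the compared groups; it ran from 0 to 2 with a library left out. It ran from 0 to 1 after washout of 6 and of 10 mM, against 0. All-gene calls depended more on the fit. At 1 mM and 4 h 1305 became 1999 with the same time and 2088 with the compared groups, and 669 to 1997 with a library left out. After washout, 1 mM gave 130 and 226 by DESeq2, 82 without filter, 1 with the same time, 0 with the compared groups and 3 to 506 with a library left out. At 4 mM, 461 became 307, 142 and 1429 and ran from 154 to 975; at 6 mM, 1466 became 932, 492 and 1 and ran from 732 to 2660; at 10 mM, 705 became 372 and 1399 and ran from 401 to 1208. The replicate letters did not pair the samples (median correlation of same-letter deviations 0.00344, 9 of 135 pairs above 0.1); with the replicate block the pathway genes called were again 1, 4, 4 and 4 at 4 h, but Ahrr from 4 to 6 mM (0.66, adjusted p 0.124), Cyp1b1 from 1 to 4 mM (-0.28, 0.0521) and Cyp1b1 from 6 to 10 mM (-0.25, 0.0567) were not called. Counts of list genes, whose alternatives were chosen after seeing the data, moved as follows at 10 mM: at 4 h the ADP-ribosylation list gave 3 and 5 with the same time; after washout the cytosolic complex gave 0 and 2 by DESeq2 and 2 with the compared groups, the ADP-ribosylation list 0 and 1 by DESeq2, coregulators 2 and 1 without filter and 0 with the same time, bHLH-PAS relatives 1 and 4 and P450 partners 1 and 2 with the compared groups. With a library left out they ran, after washout, from 0 to 2, 0 to 5, 1 to 2, 1 to 3 and, for the receptor targets, 1 to 2. The causes were not tested. Cyp1a1 did not pass the filter on low counts, so edgeR gave it no test by dose.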
